A study of Mus musculus with 8 samples.

Results

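The stage change from embryonic stem cells (ESCs) to neural precursor cells (NPCs) was followed in a single hybrid line, BJE2, at the level of all annotated genes. Its members were the 4 libraries whose labels name this line, 2 of ESCs and 2 of cells collected at day 12 of *in vitro* corticogenesis, out of 8 libraries in the series. Every one of the 26263 genes in the count tables was considered, and 16399 passed the filter on low counts. BJE2 is a male line derived from a blastocyst of a C57BL/6 (B6) mother and a JF1 father, a cross hereafter called B/J. The ESCs were grown on gelatin in a medium with LIF, BMP4 and an inhibitor of GSK3-β. The NPCs came from the same line after differentiation on Matrigel in a defined medium. To it were added B27 without vitamin A and DMH1, a dorsomorphin homolog used to promote neurogenesis. The reciprocal cross, J/B (line JBE6), was measured at the same stages. Its 4 libraries shared the filter and the estimate of spread behind the B/J tests and served for the test of a difference between crosses. A single line stands for the cross, so the values hold for this line, and nothing in the labels says whether its 2 libraries per stage came from separate cultures. The p-values therefore measure the spread between libraries of a stage and cross, estimated over both crosses, and that spread may be technical. They take the libraries as independent, although those with the same replicate number deviated together in both crosses within a stage. The measured RNA was polyadenylated and taken from bulk cultures, in which fewer cells of a type and less RNA per cell cannot be told apart.

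ESCs keep the ability to form every cell type of the embryo through a network of transcription factors built around *Pou5f1*, *Sox2* and *Nanog*. In corticogenesis this network is shut down and cells pass through a neuroepithelial stage, marked by *Nes*, *Sox1* and *Pax6*, before proneural factors of the bHLH class start neuronal differentiation. Imprinted genes, which are transcribed from one parental allele, are often expressed strongly in embryonic and extraembryonic tissue, and *Kcnk9*, a two-pore potassium channel gene, is imprinted in brain.

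Between 26578561 and 30809461 reads were counted on genes in each B/J library. Levels are given as CPM, read counts scaled by library size and normalized with TMM factors, which were 0.820 and 0.853 in ESCs and 1.14 and 1.18 in NPCs, and in each pair of values replicate 1 stands first. Changes are NPC over ESC log2 fold changes from edgeR's quasi-likelihood test, given with their standard error (SE) and with p-values adjusted over all genes tested by the Benjamini-Hochberg method. For a gene with 0 counts at a stage, 3 counts over both libraries of that stage were taken as the floor and the ratio is given as a lower bound. With 1 to 3 counts in all, the ratio of pooled counts is given with its exact 95% counting interval. These bounds and intervals cover counting error only.

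The stage change reached most of the genes tested in B/J cells. At the threshold of 0.05 on adjusted p, 9143 genes were called, which is 55.8% of those tested. Of these, 4943 (30.1% of genes tested) were higher and 4200 (25.6%) were lower in NPCs. The fitted rises were larger than the fitted falls. Among called genes the median fitted log2 fold change was 3.0 for those higher and -1.42 for those lower. A fitted rise of at least 64-fold was called for 916 genes, and a fitted fall of that size for only 50. For genes with 0 or very few counts at a stage the fitted value depends on the prior count. The 916 include genes of this kind, so their number does not rest on counts alone. In addition, 299 genes had 0 counts in both ESC libraries and a mean of at least 1 CPM in NPCs, against 6 genes with the reverse pattern. The split of calls depended on scaling. The share of calls that were higher in NPCs was 54.1% under TMM, 71.5% under library totals and 73.2% when *Gapdh*, *Gusb* and *Tbp* set the scale, hereafter called housekeeping scaling. The median change of all genes tested moved from 0.17 to 0.64 and 0.68 with these scalings.

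**Figure D1:**
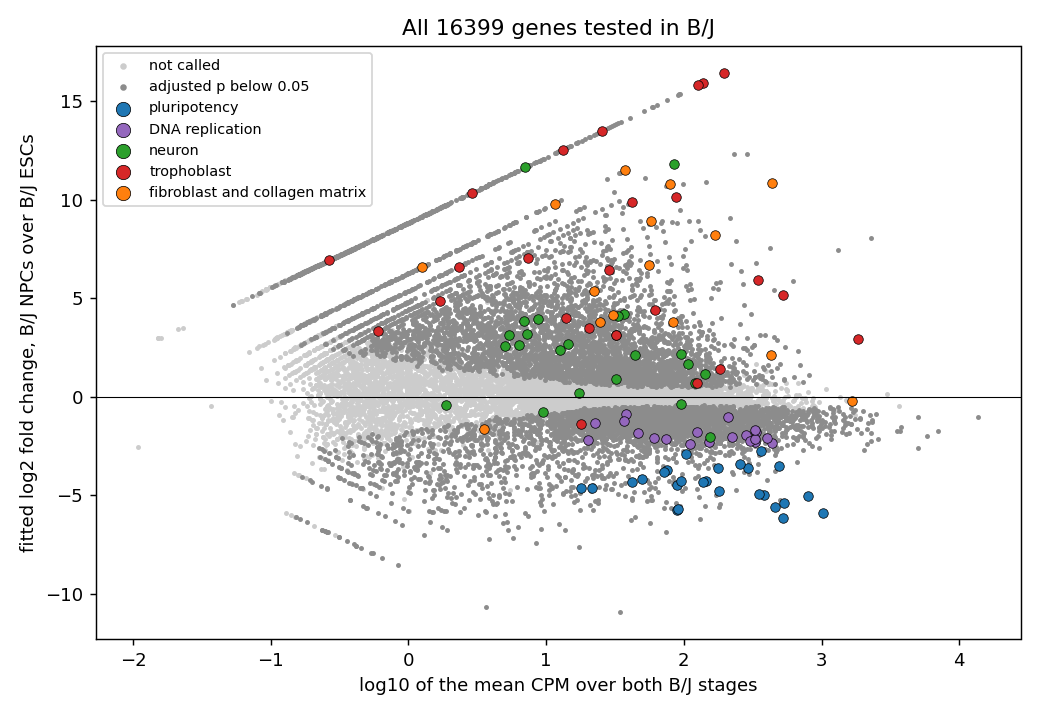
Fitted log2 fold change (vertical axis) against the log10 of the mean CPM over both stages (horizontal axis) for the 16399 genes tested in B/J, with 5 gene lists in colour. Pluripotency genes lie below 0 without exception, and most trophoblast and collagen genes lie above 0, down to -1.39 and -1.66 for their lowest members. The parallel lines at the top are genes with 0 or very few counts in ESCs, whose fitted value depends on the prior count.

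The pluripotency network fell as a whole. All 26 genes of the list were lower in NPCs, beside 25.6% of all genes tested, with a median log2 fold change of -4.40 against 0.17 for all genes, and all 26 remained called with any of the 4 B/J libraries left out. *Pou5f1*, which encodes the factor OCT4, was read at 2378 and 1643 CPM in ESCs and at 17.1 and 50 CPM in NPCs, a change of -5.91 (SE 0.560, adjusted p = 0.000279). The largest fall of the list was in *Tdh*, the threonine dehydrogenase on which mouse ESCs depend, from 1135 and 952 CPM to 6.84 and 21.9 CPM (-6.19, SE 0.725, adjusted p = 0.000522). *Nr0b1*, a nuclear receptor of the network, went from 219 and 129.5 CPM to 1.14 and 5.30 CPM (-5.77, adjusted p = 0.000813). The falls did not go to 0, and what remained differed between the NPC libraries. Summed over the list, the NPC levels were 385.9 and 790.4 CPM, with 24 of the 26 genes higher in replicate 2. *Sox2*, shared with the neural precursor list because neural stem cells keep it, had the smallest fall, from 461 and 811 CPM to 40.9 and 144 CPM (-2.78, adjusted p = 0.00546).

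Promoters of this list were searched for the core of the octamer that POU factors bind, TTTGCAT or its reverse complement ATGCAAA, in the RefSeq windows of GRCm38.p6 that run from 250 bases before to 50 bases after a start. Of the 26 genes, 14 had a window and 3 of them, *Nanog*, *Sox2* and *Zfp42*, held a match, while 5.24% of 27025 genes with a window did. The 250 bases before the start of these genes are shown because all of them fell together, with the match in capitals, read 5′ to 3′ along the strand of the gene. *Nanog*, chosen after its values were seen, was read at 855 and 633 CPM in ESCs and 9.66 and 37.3 CPM in NPCs, and *Zfp42* (REX1) at 129 and 137 CPM and 6.55 and 12.1 CPM. A match is a description of the letters and no evidence of binding.
*Nanog*, chr6:122707239-122707488 of GRCm38.p6, plus strand: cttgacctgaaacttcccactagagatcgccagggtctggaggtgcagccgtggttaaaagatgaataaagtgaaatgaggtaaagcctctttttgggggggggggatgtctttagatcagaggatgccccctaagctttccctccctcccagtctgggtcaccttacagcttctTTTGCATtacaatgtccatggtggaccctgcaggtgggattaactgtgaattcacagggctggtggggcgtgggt
*Sox2*, chr3:34649745-34649994 of GRCm38.p6, plus strand: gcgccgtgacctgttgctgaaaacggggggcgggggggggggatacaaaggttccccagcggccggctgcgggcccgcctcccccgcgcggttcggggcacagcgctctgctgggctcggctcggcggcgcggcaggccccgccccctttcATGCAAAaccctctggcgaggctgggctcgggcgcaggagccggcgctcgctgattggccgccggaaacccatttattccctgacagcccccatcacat
*Zfp42*, chr8:43307010-43307259 of GRCm38.p6, minus strand: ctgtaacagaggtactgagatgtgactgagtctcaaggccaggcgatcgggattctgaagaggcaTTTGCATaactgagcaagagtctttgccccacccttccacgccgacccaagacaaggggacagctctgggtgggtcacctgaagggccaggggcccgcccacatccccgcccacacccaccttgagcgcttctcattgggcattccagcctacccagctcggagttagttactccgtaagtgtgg

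Genes of the primed epiblast, the state between naive pluripotency and germ layer formation, did not move one way. Of 10 members, 1 was higher and 3 were lower, beside 30.1% and 25.6% of all genes tested. *Foxd3* fell from 20.1 and 38.6 CPM to 0.655 and 1.76 CPM (-4.61) and *Dnmt3b*, a *de novo* DNA methyltransferase, from 329 and 755 CPM to 56.1 and 48.2 CPM (-3.38), with adjusted p of 0.000542 and 0.00956, the latter call being lost without NPC replicate 2. *Sall2* rose from 18.6 and 17.9 CPM to 45.3 and 83.9 CPM (1.83, adjusted p = 0.00775). Most members were higher in ESC replicate 2 (9 of 10), and *Otx2* was read at 1.52 and 26.7 CPM in ESCs.

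Markers of neural precursors rose in part. Of 18 genes, 12 were higher, 1 (*Sox2*) was lower and 5 did not pass the test, with a median of 1.88. The shares of all genes tested were 30.1% higher and 25.6% lower. The largest rises were in *Sox9*, a factor of neural stem cells and glia, from 0.0868 and 0.470 CPM to 49.3 and 60.3 CPM (7.59, SE 0.606, adjusted p = 0.000192), in *Fabp7*, the fatty acid binding protein of radial glia, from 0 and 0.599 CPM to 25.5 and 77.2 CPM (7.39, SE 1.16, adjusted p = 0.00157), and in *Ptn*, a secreted growth factor, from 1.13 and 1.92 CPM to 114 and 140.4 CPM (6.38, SE 0.674, adjusted p = 0.000379). For these genes the groups did not overlap, as was so for 80.8% of all genes tested and for every called gene. All ESC counts of *Fabp7* came from replicate 2, and its change was 6.39 to 13.53 with 1 library left out. Of the widely used NPC markers *Sox1* was called, and *Nes* and *Pax6* were not. *Sox1* rose from 5.29 and 2.14 CPM to 9.71 and 30.7 CPM (2.44, SE 0.637, adjusted p = 0.0136), and was not called without ESC replicate 2 or without NPC replicate 2. *Nes*, the intermediate filament nestin, was read at 30.9 and 47.9 CPM in ESCs and 66.6 and 134 CPM in NPCs. Its log2 fold change was 1.35 (SE 0.535, adjusted p = 0.0633). *Nes* was called with library totals, with housekeeping scaling, by DESeq2, with replicate number as a block and in a fit of the 4 B/J libraries alone. It was also called without NPC replicate 1 and without either J/B ESC library. *Pax6*, the cortical progenitor factor, was read at 16.9 and 4.10 CPM and 6.98 and 27.3 CPM (0.71, SE 1.01, adjusted p = 0.571), so that NPC replicate 1 lay below ESC replicate 1, and the change was -0.59 without NPC replicate 2. In 17 of the 18 genes NPC replicate 2 was the higher library, and the summed level was 1318 and 2652 CPM. The number called higher was 7 without ESC replicate 1, 6 without ESC replicate 2, 13 without NPC replicate 1 and 6 without NPC replicate 2.

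Proneural factors and genes of the Notch pathway, which select the cells that leave the progenitor pool, rose in part. Of 22 genes, 14 were higher, none was lower and 8 did not pass the test, with a median of 2.43. Among all genes tested 30.1% were higher and 25.6% were lower. *Nhlh1*, a bHLH factor of newly born neurons, had 0 counts in both ESC libraries and was read at 14.5 and 37.1 CPM in NPCs, a level at least 389-fold higher. *Nhlh2* rose from 0.0434 and 0 CPM to 31 and 106 CPM, a ratio of 3088 (counting interval 554 to 122000), and *Neurog2*, the proneural factor of the dorsal telencephalon, from 0 and 0.0428 CPM to 9.20 and 24.5 CPM, a ratio of 762 (counting interval 137 to 30141). Adjusted p was 0.000518, 0.000343 and 0.000400 for these genes, and in each of them NPC replicate 2 was the higher library. Without ESC replicate 1 and without NPC replicate 2 the number called higher was 9, and it was 11 without ESC replicate 2 and 15 without NPC replicate 1.

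The position along the neural axis was mixed. The shares to set beside the counts of this paragraph are 30.1% higher and 25.6% lower among all genes tested. In the dorsal telencephalon list 11 of 16 genes were higher and none was lower, with a median of 3.80, led by the orphan receptor genes *Nr2f2* (0.0868 and 0.128 CPM to 178 and 214 CPM, 10.77, SE 0.522) and *Nr2f1* (0.0868 and 0.428 CPM to 86.2 and 139 CPM, 8.74, SE 0.611) and by *Neurog2*. Both receptors are also expressed well outside the cortex. *Emx1*, a homeobox gene of the dorsal telencephalon named after its values were seen, was read at 0.217 and 0.0855 CPM and 0.313 and 1.24 CPM (2.33, adjusted p = 0.218) and did not pass the test. The count of 11 was 4 without ESC replicate 1, 8 without ESC replicate 2, 10 without NPC replicate 1 and 8 without NPC replicate 2, and limma-voom called 7. Of the ventral telencephalon and GABAergic list, 9 of 14 genes were higher and *Lhx6*, a factor of cortical interneurons, was lower (4.99 and 3.63 CPM to 1.05 and 1.37 CPM, -1.83, adjusted p = 0.0155), a call lost without ESC replicate 1, without either NPC library and with housekeeping scaling. *Gad2* (5.26), an enzyme of GABA synthesis, was among the rises, while *Nkx2-1* stayed at 0.114 and 0.606 CPM after 0 counts in ESCs, at least 5.36-fold higher, and was not called without either ESC library, without NPC replicate 2, without either J/B NPC library or by DESeq2. The count of 9 was 2 without ESC replicate 1, 3 without ESC replicate 2, 8 without NPC replicate 1 and 4 without NPC replicate 2.

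Genes of midbrain, hindbrain and spinal cord rose in part, with 10 of 18 higher, 2 lower and a median of 3.49. The shares of all genes tested were 30.1% higher and 25.6% lower. *Hoxa2*, a gene of hindbrain segments, went from 0.130 and 0 CPM to 6.32 and 15.8 CPM, a ratio of 167 (counting interval 56.9 to 812), and *Pax2* from 0.0434 and 0.171 CPM to 7.58 and 13.1 CPM (6.53, SE 0.638). *Gbx2*, which ESCs express as part of their naive programme, fell from 58.1 and 42.8 CPM to 3.16 and 6.93 CPM (-3.32), and *En2* fell from 16.8 and 21.3 CPM to 2.28 and 7.21 CPM (-2.01, adjusted p = 0.0368), and was not called without either ESC library, without NPC replicate 1, without either J/B NPC library or with library totals or housekeeping scaling. With each B/J library left out in turn, 7, 7, 11 and 8 members were called higher.

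Neuronal transcripts rose in part, and of the 33 lists theirs had the highest ratio of summed levels between NPC replicates 2 and 1. Of 24 neuron genes 14 were higher and 1 was lower, beside 30.1% and 25.6% of all genes tested, with a median of 2.47. *Dcx*, the microtubule protein of migrating neurons, was read at 0.0434 and 0.0428 CPM in ESCs and 62.9 and 277 CPM in NPCs, a ratio of 3800.2 (counting interval 1052 to 31383). *Slc17a6*, a vesicular glutamate transporter gene, had 0 counts in ESCs and 5.16 and 23.1 CPM in NPCs (at least 211-fold higher), and *Elavl4* rose from 3.38 and 4.15 CPM to 29.4 and 109 CPM (4.20, SE 0.633). *Stmn2* fell from 283 and 218 CPM to 27.5 and 94.7 CPM (-2.04, adjusted p = 0.0169), by 3.19 without NPC replicate 2, and was not called without ESC replicate 1 or with housekeeping scaling. All 24 genes were higher in NPC replicate 2, and their sum was 707.9 and 2174 CPM, whereas the ESC libraries had 763.3 and 690.3 CPM. The sum in NPC replicate 1 lay between those of the ESC libraries. The number of genes called higher was 8 without ESC replicate 1, 10 without ESC replicate 2, 17 without NPC replicate 1 and 10 without NPC replicate 2.

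Of 12 glial markers 4 were higher and 3 were lower, shares near the 30.1% and 25.6% of all genes tested. *Pdgfra*, shared with the mesoderm list, rose from 0.911 and 1.58 CPM to 114 and 80.2 CPM (6.28, adjusted p = 0.000607), while *Aqp4* and *S100b*, each with 0 counts in ESCs, reached only 0.228 and 0.255 CPM and 0.228 and 0.255 CPM. *Olig1* (20.4 and 31.3 CPM to 0.484 and 1.28 CPM, -4.88), *Olig2* (-3.24) and *Aldh1l1* (-3.26), genes of the oligodendrocyte and astrocyte lineages, were lower. With each of the 4 B/J libraries left out in turn, 2 glial genes were called higher, *Aqp4* and *S100b* not among them, and *Olig2* was not called without ESC replicate 2. Of 12 neural crest genes 8 were higher and 2 were lower, with a median of 4.43, and the same 8 genes were called higher without each of the 4 B/J libraries. *Tfap2b* rose from 0 and 0.0428 CPM to 40.5 and 95 CPM, a ratio of 3073 (counting interval 551 to 121421), and *Ednrb*, the endothelin receptor of migrating crest cells, from 0.0434 and 0.0428 CPM to 23.3 and 52 CPM, a ratio of 855 (counting interval 236 to 7064). *Foxd3* and *Mitf* (-1.08, adjusted p = 0.0261) were called lower, and the call of *Mitf* was lost without each of the 4 B/J libraries and with library totals or housekeeping scaling.

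**Figure D2:**
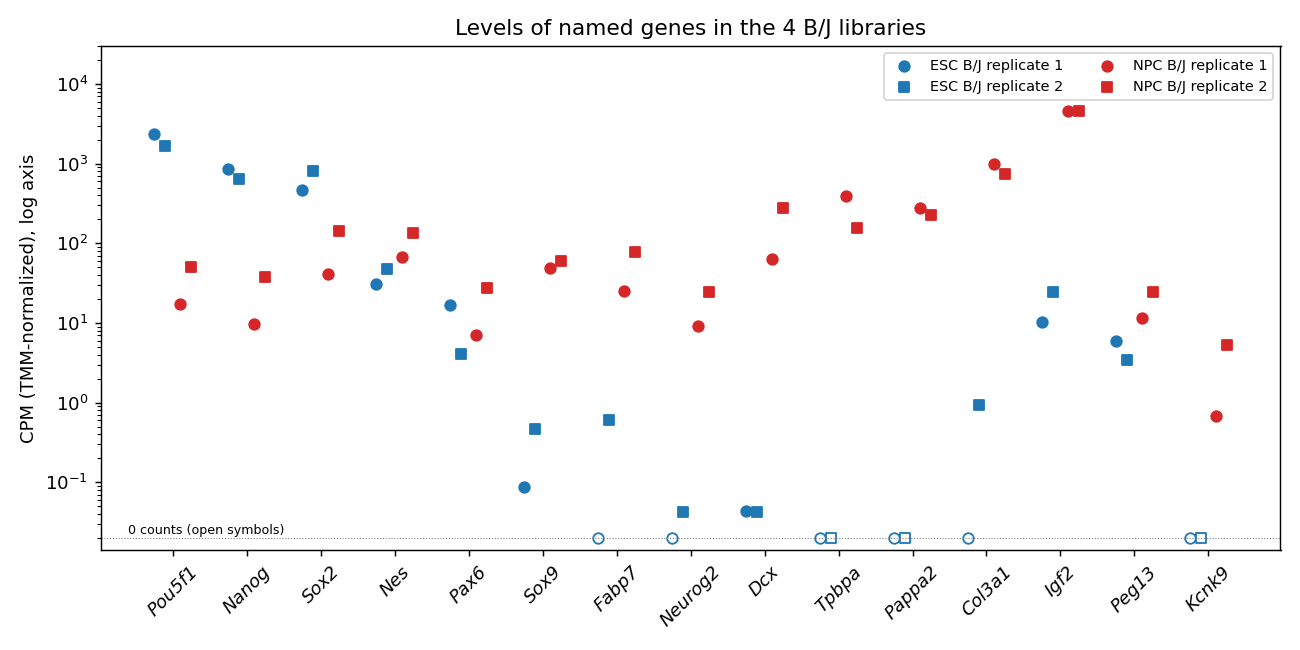
CPM on a log axis for 15 genes in the 4 B/J libraries, with blue for ESCs and red for NPCs, circles for replicate 1 and squares for replicate 2, and open symbols for 0 counts. Dcx and Fabp7 were higher in NPC replicate 2, Tpbpa was higher in NPC replicate 1, and the groups overlapped for Pax6.

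Transcripts of the placenta rose in nearly every member. Of 24 trophoblast genes 22 were higher in B/J NPCs and none was lower, beside 30.1% and 25.6% of all genes tested. The median was 6.17, or 5.54 with the 7 genes that had 0 ESC counts set at their bound. *Ctsj*, a placental cathepsin, was read at 504 and 279 CPM (at least 6160.3-fold higher), *Tpbpa*, the marker of spongiotrophoblast, at 395 and 157 CPM (at least 4373-fold higher) and *Pappa2*, a protease that cleaves IGF-binding proteins, at 275 and 229 CPM (at least 3926-fold higher), each after 0 counts in both ESC libraries. Outside the list, genes at 0 in ESCs with high NPC levels were *Serpinb9e* (363 and 148 CPM, at least 4049.7-fold higher) and *Prl2b1* (264 and 114 CPM, at least 2991-fold higher), both members of clustered families expressed in placenta. *Ctsj*, *Serpinb9e* and *Prl2b1* belong to families of closely related genes, between which reads could be split, so the level of each is uncertain. The keratin *Krt8*, of simple epithelia and trophoblast, rose from 6.73 and 49.6 CPM to 1366 and 675 CPM (5.18, adjusted p = 0.00295), one of the largest rises in CPM. Other members of the list among the largest rises were *Krt7* (0.0434 and 0.257 CPM to 227 and 123 CPM, 10.14) and *Plac1* (0.0868 and 0.0855 CPM to 123 and 44.5 CPM, 9.85). The summed level was 8688 and 5203 CPM in NPCs, against 572 and 836 CPM in ESCs, and 20 of 24 genes were higher in NPC replicate 1, the opposite of the neuronal list. The count of 22 was 17 to 22 with each B/J library left out. The part of these cells or transcripts in the neural results was not tested.

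Collagens and other matrix genes of fibroblasts rose in 13 of 15 members, with 1 lower and a median of 6.59, and the same 13 genes were called higher without each of the 4 B/J libraries. The shares of all genes tested to set beside the counts of this paragraph are 30.1% higher and 25.6% lower. *Col3a1* rose from 0 and 0.941 CPM to 1001 and 735 CPM (10.83, SE 1.59, adjusted p = 0.00120). *Col1a2* rose from 0 and 0.171 CPM to 184 and 135 CPM (10.78, SE 2.16, adjusted p = 0.00454). *Lum*, a proteoglycan gene, rose from 0.0434 and 0 CPM to 92.4 and 58.3 CPM, a ratio of 3546 (counting interval 636 to 140080). All ESC counts of *Col3a1* and *Col1a2* came from replicate 2, and with 1 library left out their changes were 9.85 to 17.61 and 9.83 to 15.17, the higher values resting on the prior count. *Thy1* fell from 3.38 and 7.35 CPM to 1.85 and 1.53 CPM (-1.66), but was not called without ESC replicate 2, without any of the NPC libraries of either cross, by limma-voom, with library totals or with housekeeping scaling. *Col4a1*, a basement membrane collagen outside the list, was among the largest rises in CPM, from 22.8 and 18.6 CPM to 1322 and 1105 CPM (5.87). Of 11 endothelial and blood genes tested, 8 were higher and *Pecam1* was lower (-1.32, or -0.79 without ESC replicate 1, and not called without it, without any of the NPC libraries of either cross, by limma-voom, with library totals or with housekeeping scaling). *Cdh5*, the cadherin of endothelial junctions, had the largest rise in the naming rule, from 0.0434 and 0.171 CPM to 772 and 385 CPM (12.33, SE 0.648, adjusted p = 0.000103), and *Flt1*, a VEGF receptor gene also known from trophoblast, went from 0.608 and 2.14 CPM to 217 and 177 CPM (7.16). *Emcn*, an endothelial sialomucin, reached 0.570 and 0.574 CPM after 0 counts, and was not called without ESC replicate 1. Adult haemoglobins were at 0 counts in all 4 B/J libraries, the leukocyte gene *Ptprc* had 1 count in all, and the embryonic globin *Hbb-y* reached 0.370 and 0.415 CPM, a rise whose call was lost by DESeq2 and with any 1 of the 4 B/J libraries left out. The endothelial and blood count was 3 without ESC replicate 1, 5 without ESC replicate 2, 6 without NPC replicate 1 and 5 without NPC replicate 2.

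Lists of mesoderm, muscle, endoderm, epithelium and germline each had members called in both directions. The shares of all genes tested to set beside the following counts are 30.1% higher and 25.6% lower. Of 16 mesoderm genes 6 were higher and 2 were lower, with *Foxc1* (0.130 and 1.03 CPM to 89.9 and 74.5 CPM, 7.14) and *Foxc2* (6.44) among the rises and the primitive streak genes *Mixl1* (0.477 and 13.6 CPM to 0.114 and 0.128 CPM, -5.82) and *Msgn1*, with an ESC over NPC ratio of 65.8 (counting interval 11.2 to 2656), as the falls. Neither fall was called without ESC replicate 2, without NPC replicate 1 or without NPC replicate 2, and 3 genes of this list were called higher without ESC replicate 1 or without NPC replicate 1. Of 10 muscle genes tested, 3 were higher, among them *Tpm2* (17.1 and 21.4 CPM to 189.8 and 97.5 CPM, 2.90), and *Cnn1* (-2.76) and *Myl7* (-2.43) were lower. The call of *Cnn1* was lost without ESC replicate 2 and without NPC replicate 1, and that of *Myl7* without each of the 4 B/J libraries and with library totals or housekeeping scaling. The number of muscle genes called higher was 6 without ESC replicate 2 and 1 without NPC replicate 1. Of 14 endoderm genes tested, 6 were higher, led by *Foxa2* (0.0868 and 0.299 CPM to 7.43 and 6.06 CPM, 5.09) and *Foxa1* (0.868 and 0.299 CPM to 8.86 and 8.87 CPM, 3.92), and *Apoa2* (-4.54), *Apoe* (-2.65) and *Sox7* (-2.10) were lower. In surface ectoderm and epithelium 7 of 15 were higher and 3 were lower. *Krt15*, with 0 counts in ESCs, reached 7.86 and 8.74 CPM (at least 128-fold higher), *Trp63*, the regulator of stratified epithelia, rose from 0.0868 and 0.0428 CPM to 31.3 and 37.1 CPM, a ratio of 526 (counting interval 179.8 to 2554), and *Cdh1* (E-cadherin) fell from 429 and 634 CPM to 256 and 259.5 CPM (-1.04). Only 1 of the 3 falls was called with library totals, with housekeeping scaling, without ESC replicate 2, without NPC replicate 1 or without NPC replicate 2. Germline genes, of which 13 were tested, had 4 lower and 1 higher, *Tuba3b*, whose NPC levels were 8.03 and 0.383 CPM and which was called neither without an ESC library nor without NPC replicate 1. The largest germline fall was in *Rpl10l*, from 53.3 and 26 CPM to 1.57 and 1.82 CPM (-4.55).

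**Figure D3:**
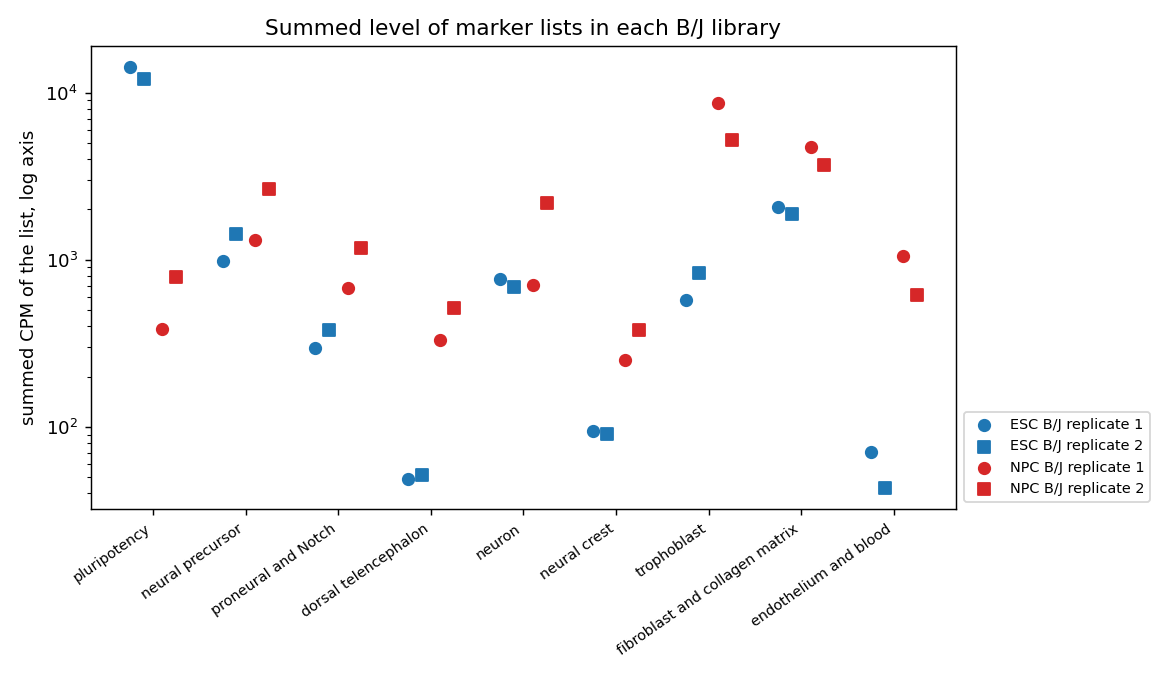
Summed CPM of 9 marker lists on a log axis in each B/J library, with symbols as in the plot of single genes. NPC replicate 2 had the higher sum for pluripotency, neural precursor, proneural, dorsal telencephalon, neuron and neural crest genes, and NPC replicate 1 for trophoblast, fibroblast and endothelial genes.

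Imprinted genes rose in their majority, with 21 of 31 higher, 4 lower and a median of 1.88, and 18 to 21 were called higher with each B/J library left out. Among all genes tested 30.1% were higher and 25.6% were lower. *Igf2*, the fetal growth factor, had the largest rise in CPM of all called genes, from 10.3 and 24.5 CPM to 4526 and 4622 CPM (8.03, SE 0.544, adjusted p = 0.000128). It was followed by *Peg10*, a retrotransposon-derived gene needed for the placenta and also in the trophoblast list, from 339 and 512 CPM to 3834 and 2643 CPM (2.93), and by the non-coding *H19*, from 9.33 and 21.2 CPM to 3435 and 1792 CPM (7.42). *Rtl1*, also derived from a retrotransposon, had 0 counts in ESCs and 1.05 and 1.82 CPM in NPCs (at least 21.9-fold higher). The members called lower were *Ddc* (25.3 and 19.7 CPM to 2.16 and 4.69 CPM, -2.72), *Snrpn* (-1.70), *Impact* (-1.52) and *Mcts2* (-1.03). On library totals and after scaling to the housekeeping genes, 22 were higher and 2 were lower, the calls of *Snrpn* and *Mcts2* being lost, as they were without ESC replicate 2 or NPC replicate 1 for *Snrpn* and without ESC replicate 1 or either NPC library for *Mcts2*. Reads of both alleles are summed, and parental origin was not analysed here.

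In the *Peg13*-*Kcnk9* domain on chromosome 15, *Kcnk9* and *Peg13* were called higher and *Trappc9* was not called. In GRCm39, *Kcnk9* lies on the minus strand at chr15:72372938-72419556 and the non-coding *Peg13* at chr15:72677449-72682173, inside *Trappc9* (chr15:72461467-72934559). *Kcnk9* had 0 counts in both ESC libraries and 24 and 167 counts in NPCs, or 0.683 CPM (95% exact Poisson interval 0.438 to 1.02) and 5.33 CPM (4.55 to 6.20). With that 0 set to 3 counts for the ESC libraries combined, the NPC level was at least 44.5-fold higher (adjusted p = 0.00667), and the intervals of the NPC libraries did not overlap. This bound was 82.5-fold without NPC replicate 1, 10.6-fold without NPC replicate 2, 22.4-fold without ESC replicate 1 and 22.1-fold without ESC replicate 2. *Peg13* was read at 5.90 and 3.38 CPM in ESCs and 11.4 and 24.3 CPM in NPCs. Its groups did not overlap, as was so for every called gene. The change was 1.94 (SE 0.561, adjusted p = 0.0202). That change was 1.59 without ESC replicate 2 and 1.30 without NPC replicate 2, and in neither case was it called. *Trappc9* was read at 41.1 and 32.6 CPM and 31.3 and 37.9 CPM (-0.09, SE 0.230, adjusted p = 0.750) and was not called. *Peg13* overlaps *Trappc9* in the annotation, and the handling of reads in shared stretches is not stated in the sources.

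Among two-pore potassium channels, which set the resting potential, 6 of 10 genes tested were higher and none was lower. The shares of all genes tested were 30.1% higher and 25.6% lower. Besides *Kcnk9*, *Kcnk10* rose from 0.0868 and 0.128 CPM to 2.96 and 9.89 CPM (5.84, SE 0.816, adjusted p = 0.000957) and *Kcnk16*, with 0 counts in ESCs, reached 0.712 and 0.383 CPM (at least 8.62-fold higher), and was not called without either ESC library or without NPC replicate 1. The number called higher was 3 without ESC replicate 1 and without ESC replicate 2, 4 without NPC replicate 1 and 5 without NPC replicate 2.

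Genes that write, read and protect DNA methylation marks mostly fell. Of 15 genes of DNA methylation and imprint maintenance, 11 were lower and 2 were higher, with a median of -2.25. *Dnmt3l*, the cofactor of *de novo* methylation, went from 234 and 249 CPM to 4.44 and 14.5 CPM (-4.68, SE 0.713), *Tet1*, which oxidizes methylated cytosine, from 677 and 439 CPM to 18.3 and 55.4 CPM (-3.92, SE 0.586) and *Zfp42* changed by -3.84. *Tet3* rose from 12.1 and 19.3 CPM to 131 and 169 CPM (3.26, SE 0.328, adjusted p = 0.000324). The falling count was 9 to 10 with each B/J library left out and 10 and 9 with library totals and housekeeping scaling, and 1 gene rather than 2 was called higher without either ESC library or without NPC replicate 2. Polycomb genes were called in both directions, the share called higher being near the 30.1% of all genes tested, of which 25.6% were lower. Of 20 genes 11 were lower, among them *Cbx7* (305 and 246 CPM to 37.1 and 44.3 CPM, -2.76), *Epop* (-2.57) and *Eed* (-2.50), a core subunit of the complex that methylates histone H3, and 6 were higher, among them the *Cbx7* relative *Cbx8* (0.694 and 0.342 CPM to 19.1 and 12.2 CPM, 4.91) and *Bmi1* (1.39). The 6 rises were 5 without ESC replicate 1, 3 without ESC replicate 2, 3 without NPC replicate 1 and 4 without NPC replicate 2. Of 12 CTCF and cohesin genes tested, 4 were lower, a share not far from the 25.6% of all genes tested, and none was higher. *Ctcf* itself was read at 239 and 287 CPM in ESCs and 116 and 147 CPM in NPCs (-1.0, SE 0.187, adjusted p = 0.00325), *Wapl*, which releases cohesin, changed by -1.15 and *Smc1a* by -1.08, which was not called with housekeeping scaling. The median of this list was -0.29 with TMM factors but 0.17 with library totals and 0.22 after housekeeping scaling, so that its direction depended on the scaling, and *Ctcf* was not called under either. With library totals 2 of its genes were lower and 1 was higher, and with housekeeping scaling 1 was lower and 1 was higher.

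Genes of DNA replication and mitosis were mostly lower. All 20 DNA replication genes were lower, with a median of -2.07, and 15 of 16 mitosis genes were lower, with a median of -1.45. *Fen1*, the flap endonuclease, fell from 209.9 and 160.3 CPM to 37.5 and 32.4 CPM (-2.40, SE 0.301, adjusted p = 0.000631), the helicase subunit *Mcm2* from 792 and 665 CPM to 130.1 and 157 CPM (-2.35, SE 0.290) and *Pole*, a DNA polymerase gene, from 285 and 221 CPM to 46.3 and 54.2 CPM (-2.33, SE 0.270). In mitosis, *Ccnb1* (cyclin B1) fell from 618 and 530.0 CPM to 135 and 148 CPM (-2.02), *Bub1* from 255 and 272 CPM to 57.5 and 80.7 CPM (-1.93) and *Kif20a* from 429.6 and 342 CPM to 99.3 and 114 CPM (-1.85). The replication count was 17 and the mitosis count 11 with library totals, and 17 and 10 with housekeeping scaling, with none higher in either. With each B/J library left out they were 17 to 19 and 11 to 14. The NPC libraries had 1521 and 1590.5 CPM summed over the replication genes and 1510.3 and 1967 CPM over the mitosis genes. Among G1 regulators 7 of 17 were higher and 4 were lower, against 30.1% and 25.6% of all genes tested, and 2 were lower with housekeeping scaling. The CDK inhibitor gene *Cdkn1c*, also imprinted, rose from 11.8 and 30.5 CPM to 1089 and 688 CPM (5.39, adjusted p = 0.00115), *Ccnd2*, the cyclin D of neural progenitors, from 9.24 and 14.2 CPM to 119 and 232 CPM (3.91) and *Cdkn2b* from 0.998 and 0.770 CPM to 6.58 and 4.76 CPM (2.68). *Ccne1*, the cyclin E that ESCs hold at a high level, fell from 303 and 328 CPM to 51.6 and 38.7 CPM (-2.81, adjusted p = 0.000331), with *Cdk4* (-1.29) and *Cdk6* (-1.66), the last of which was not called without ESC replicate 2, without NPC replicate 1 or with library totals or housekeeping scaling.

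Because the replication genes fell together, their promoters were searched for the core of the E2F site, GCGGGAA or its reverse complement TTCCCGC, in the same RefSeq windows. Of 20 genes 16 had a window, and 8 of these (50%) held a match, beside 5.29% of the 27025 genes with a window. The 250 bases before the start of 3 of them follow with the match in capitals, all chosen after their values were seen. *Mcm7* was read at 709 and 591 CPM in ESCs and 146 and 160.1 CPM in NPCs (-2.09), the origin licensing gene *Cdc6* at 99.6 and 96.7 CPM and 22 and 23.1 CPM (-2.12) and the primase gene *Prim1* at 67.1 and 78.8 CPM and 19.6 and 21.1 CPM (-1.84). A letter match alone does not show a bound site.
*Mcm7*, chr5:138171884-138172133 of GRCm38.p6, minus strand: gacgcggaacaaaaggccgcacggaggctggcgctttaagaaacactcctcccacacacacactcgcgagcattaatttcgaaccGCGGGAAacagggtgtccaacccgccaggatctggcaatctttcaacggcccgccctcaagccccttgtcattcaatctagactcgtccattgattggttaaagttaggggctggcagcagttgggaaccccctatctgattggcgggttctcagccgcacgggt
*Cdc6*, chr11:98907901-98908150 of GRCm38.p6, plus strand: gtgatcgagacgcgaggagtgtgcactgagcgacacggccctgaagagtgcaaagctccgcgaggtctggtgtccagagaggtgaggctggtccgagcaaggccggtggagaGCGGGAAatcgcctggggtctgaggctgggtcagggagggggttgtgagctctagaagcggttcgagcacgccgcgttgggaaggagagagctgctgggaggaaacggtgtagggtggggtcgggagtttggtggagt
*Prim1*, chr10:128014965-128015214 of GRCm38.p6, plus strand: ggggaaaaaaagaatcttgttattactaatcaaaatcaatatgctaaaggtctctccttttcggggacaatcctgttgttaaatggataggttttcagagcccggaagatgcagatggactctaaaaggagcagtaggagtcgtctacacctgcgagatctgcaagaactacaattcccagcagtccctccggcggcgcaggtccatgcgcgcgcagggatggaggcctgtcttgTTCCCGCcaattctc
The same search was made for lists that rose. The GATA core AGATAA or TTATCT was found in 2 of 19 trophoblast genes with a window (10.5%), and in 12.7% of all genes. The E-box CAGATG or CATCTG, which proneural bHLH factors bind, was found in 2 of 17 proneural and Notch genes (11.8%) and in 4 of 16 neuron genes (25%), and in 19.2% of all genes.

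Genes of energy metabolism and of the ribosome were mostly lower. The shares of all genes tested to set beside the counts of this paragraph are 25.6% lower and 30.1% higher. Of 19 glycolysis genes 12 were lower and 2 were higher, with a median of -1.13. *Hk2* (hexokinase 2) fell from 505 and 473 CPM to 84.4 and 125 CPM (-2.23), *Pfkp* from 370.2 and 361 CPM to 81.5 and 79.9 CPM (-2.18) and *Eno1* from 3704 and 3513 CPM to 863 and 1123 CPM (-1.86), while *Eno2*, the neuronal enolase, rose from 4.90 and 5.99 CPM to 19.9 and 76.3 CPM (3.14, or 1.87 without NPC replicate 2) and the glucose transporter gene *Slc2a1* from 454 and 391 CPM to 871 and 788 CPM (0.97, not called without ESC replicate 2). Of 18 respiratory chain genes 12 were lower and none was higher (median -0.90), led by *Atp5b* (-1.63), *Atp5a1* (-1.58) and *Ndufs1* (-1.30), and of 20 cytosolic ribosomal protein genes 18 were lower and none was higher (median -1.17), led by *Rplp0* (3591 and 2949 CPM to 1088 and 997 CPM, -1.65), *Rpl8* (-1.39) and *Rpsa* (-1.36). The 100 most abundant genes of a library took 22.05% and 20.32% of the reads in ESCs and 14.65% and 14.2% in NPCs. The size of the falls moved with the scaling. With library totals the medians were -0.66, -0.44 and -0.70 and the counts 9, 7 and 14 lower, and with housekeeping scaling -0.62, -0.41 and -0.67 and 7, 8 and 15 lower. Glycolysis had 4 genes higher under both. Without NPC replicate 2 the respiratory chain count was 7, and without ESC replicate 1 the ribosomal count was 12 and the glycolysis count 8. Of the reference genes, *Gapdh* fell from 6288 and 4953 CPM to 1715 and 2129 CPM (-1.55, adjusted p = 0.00108) and *Tbp* from 46.9 and 56.8 CPM to 31.2 and 27.5 CPM (-0.82, adjusted p = 0.0130, not called without ESC replicate 2, without NPC replicate 2 or with library totals or housekeeping scaling), while *Gusb* was read at 14 and 12.7 CPM and 31.3 and 18.1 CPM (0.89, adjusted p = 0.0629). Of 16 p53 targets and stress genes 7 were lower, among them the apoptosis genes *Bax* (217 and 229.6 CPM to 60.9 and 48.5 CPM, -2.03) and *Pmaip1* (-1.82) and *Sesn2* (-1.41), and 2 were higher, *Ddit3* (2.30 and 2.48 CPM to 14 and 15.4 CPM, 2.62) and *Hmox1* (0.91, adjusted p = 0.0461). The *Hmox1* change was 0.39 without NPC replicate 1, and it was not called without that library, without any of the ESC libraries of either cross or by limma-voom. The split of the list was 5 lower and 3 higher with library totals and 3 lower and 3 higher with housekeeping scaling.

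Members of the signalling pathways were called in both directions, as were all genes tested, with 30.1% higher and 25.6% lower. In the Wnt list 14 of 25 were higher and 3 were lower. *Wnt1* had 0 counts in ESCs and 1.88 and 7.91 CPM in NPCs (at least 73.1-fold higher), *Wnt8b* went from 0 and 0.0428 CPM to 0.712 and 6.54 CPM, a ratio of 161 (counting interval 28.6 to 6376) whose call was lost by limma-voom, without either ESC library and without NPC replicate 2, and *Wnt7b* from 0.391 and 1.33 CPM to 57.1 and 86.9 CPM (6.38). The receptor gene *Fzd5* (150.4 and 129 CPM to 26 and 18.3 CPM, -2.65) and the nuclear effectors *Lef1* (-1.52) and *Tcf7* (-1.26) were called lower. The call of *Lef1* was lost without each of the 4 B/J libraries, that of *Tcf7* without ESC replicate 2, and both with library totals or housekeeping scaling, whereas *Fzd5* kept its call in each of these settings. The Wnt count was 9 without ESC replicate 1 and 10 without NPC replicate 2. In the FGF list 6 of 19 were higher and 9 were lower. The ligand *Fgf4*, which ESCs secrete, fell from 329 and 362 CPM to 5.58 and 19.7 CPM (-4.78) with *Fgf17* (-4.96) and the target *Etv4* (132 and 73.5 CPM to 4.50 and 6.54 CPM, -4.22), whereas the receptors *Fgfr2* (8.38 and 13.3 CPM to 181 and 162 CPM, 3.98) and *Fgfr3* (2.51) rose and *Fgf9* reached 1.34 and 1.66 CPM, a ratio of 34.6 (counting interval 9.33 to 289.6). In the TGF-beta, Nodal and BMP list 12 of 25 were higher and 7 were lower. The falls included the Nodal coreceptor *Tdgf1* from 1176 and 917 CPM to 14.9 and 35.2 CPM (-5.38), *Lefty2* (-4.33) and *Nodal* (97.7 and 63.3 CPM to 3.08 and 5.01 CPM, -4.32), and *Tgfb3* (0.0434 and 0.128 CPM to 69.9 and 37.2 CPM, 9.21), the receptor *Tgfbr2* (0.391 and 0.727 CPM to 75.3 and 42.9 CPM, 6.71) and *Bmp5*, with a ratio of 346 (counting interval 118 to 1678), rose.

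**Figure D4:**
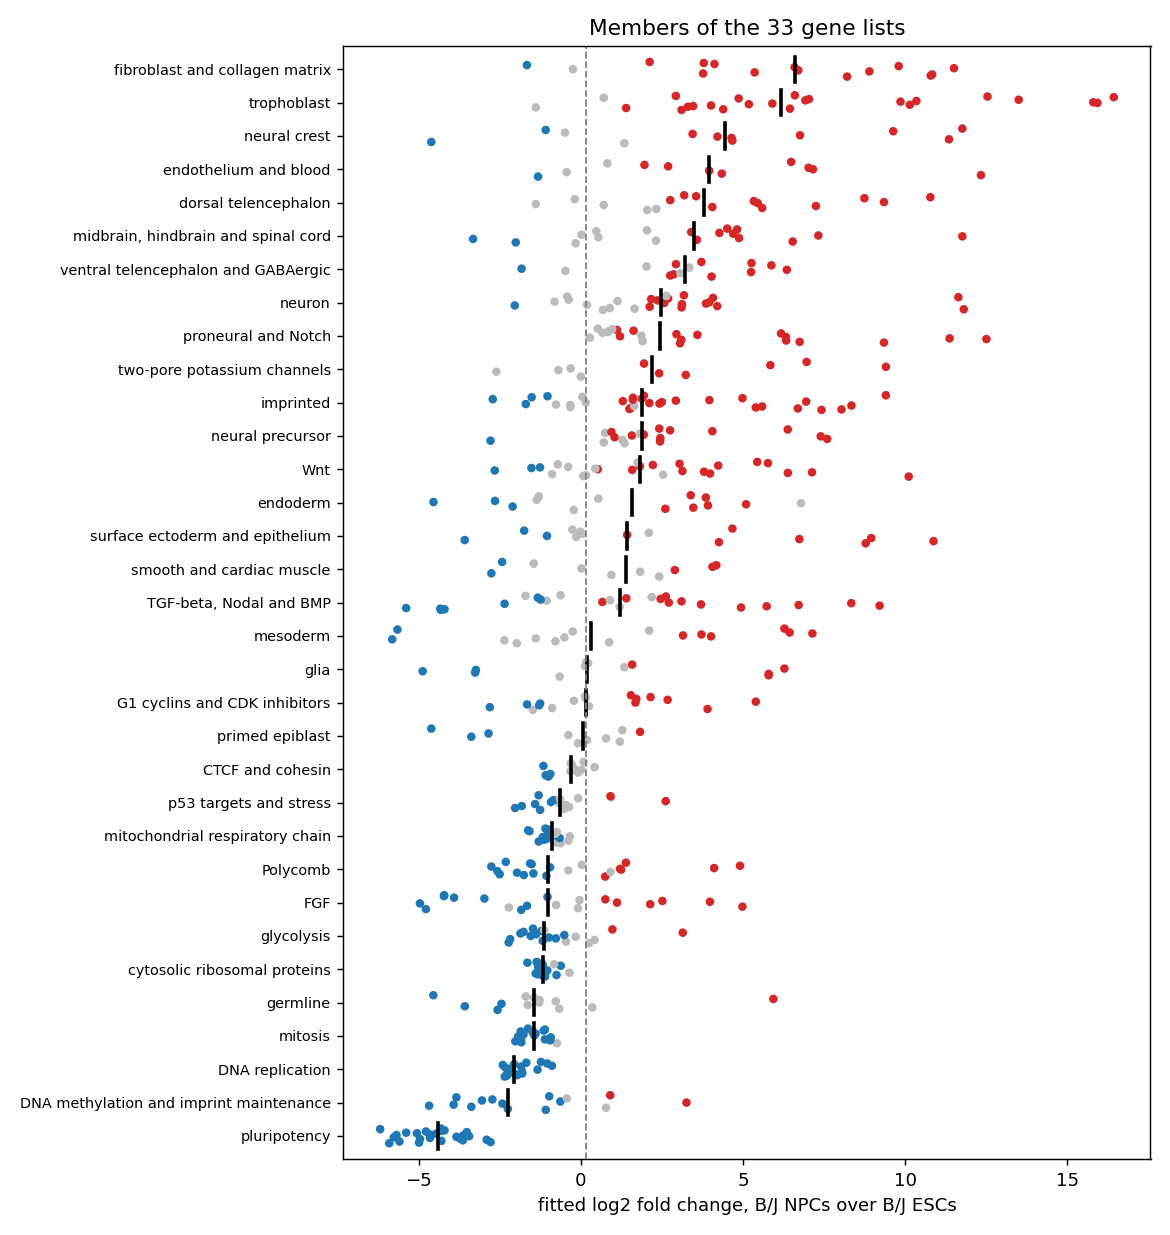
Fitted log2 fold change of every tested member of the 33 gene lists, with red and blue for members called higher and lower, grey for members not called, black bars for list medians and a dashed line at the median of all genes tested (0.17). Medians run from -4.40 for pluripotency to 6.59 for fibroblast and collagen matrix.

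Beyond the lists, the largest rises among genes with at least 10 CPM in NPCs and 3 counts in ESCs included, after *Cdh5*, *Tnfrsf9*, a TNF receptor gene (0.0434 and 0.128 CPM to 633 and 295 CPM, 12.32), the hormone gene *Sct* (0.0434 and 0.257 CPM to 428 and 153 CPM, 10.87), *Serpinb6b* (0.130 and 0.0428 CPM to 209 and 87.1 CPM, 10.68) and *Usp18*, an interferon-induced protease, from 0 and 0.128 CPM to 86.9 and 47.3 CPM, a ratio of 1056 (counting interval 361 to 5123). All of them were higher in NPC replicate 1 than in replicate 2. The largest falls were smaller. *Rbfaos* fell from 44.4 and 24.4 CPM to 0.0570 and 0.287 CPM (-7.64), *Myh13*, a muscle myosin gene, from 23.7 and 10.1 CPM to 0 and 0.191 CPM (-7.45), *2310043M15Rik* by 7.18 on the log2 scale and *Acsbg3* from 192 and 103 CPM to 1.25 and 1.21 CPM (-6.90). The remaining 6, *Btla*, *Slc5a1*, *Gm21283*, *Epp13*, *Serpina3m* and *Zfp990*, had changes between -6.77 and -6.43. *Rbfaos* is named as an antisense gene, whose reads cannot be told apart from those of its partner where strand was not used in counting. *Cdx1*, a caudal homeobox gene named after its values were seen, lay outside the rule because only 2 counts were left in NPCs, after 116 and 20.9 CPM in ESCs, and its ESC over NPC ratio was 2259.5 (counting interval 625 to 18666). In CPM, the largest falls were in the elongation factor *Eef1a1* (21658 and 15606 CPM to 8787 and 9096 CPM, -1.06), the chaperones *Hsp90ab1* (12135 and 9566 CPM to 2905 and 3455 CPM, -1.77), *Hsp90aa1* (8787 and 8324 CPM to 1295 and 1525 CPM, -2.60) and *Hspa8* (10371 and 8178 CPM to 2473 and 2172 CPM, -2.0), and *Ptma* (-1.75). Genes with 0 counts in both NPC libraries were weak in ESCs. *Pgc*, the pepsinogen C gene, was the highest, at 5.64 and 9.06 CPM (at least 163-fold lower in NPCs), followed by *Fcgr2b* (at least 37.2-fold lower), *Platr27*, *Ube2dnl1* and *Akr1c18* (at least 24.3-fold lower).

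The libraries of a group differed by much more than counting error, with a chi-square over degrees of freedom of 60.3 in ESCs and 82.3 in NPCs. Of the 16399 genes, 3.72% differed by more than 2-fold between the ESC libraries and 7.46% between the NPC libraries, 816 of the latter higher in replicate 2 and 407 higher in replicate 1. Among genes with a mean of at least 10 CPM in a stage, the following had the highest and lowest ratios between its libraries, and genes under that level could differ more. Neuronal genes were among those with the highest ratios in NPC replicate 2. *Reln*, the secreted cue of cortical layering, was 7.93-fold higher in replicate 2 (2.93 and 23.3 CPM), *Onecut2* 7.54-fold, the glutamate receptor gene *Grm2* 6.10-fold, the synaptotagmin gene *Syt4* 5.54-fold and *Pou2f2* 5.49-fold. Genes with the highest ratios in NPC replicate 1 were *Gm19757* (5.89-fold, 27.5 and 4.66 CPM), *Gm11127* (3.97-fold), *Chodl* (3.50-fold), the X-linked homeobox gene *Rhox12* (3.47-fold) and *Lars2* (3.43-fold). In ESCs, replicate 2 had 17.6-fold more *Otx2*, a gene that rises when naive cells become primed, and 12.8-fold more *T* (brachyury, 6.60 and 84.4 CPM), with *Sema6a*, *Fndc3c1* and *Amot* at 7.73- to 10.5-fold. Replicate 1 had more *Myo1f* (27.9-fold), *Inhbb* (11.7-fold), *Rpl31-ps12* (11.6-fold), *Halr1* (9.75-fold) and *Hal* (8.12-fold). *Lars2* and *Rpl31-ps12* were higher in replicate 1 at both stages, with *Lars2* at 947 and 135 CPM in ESCs and 231 and 67.3 CPM in NPCs. Of 8233 genes with a mean of at least 10 CPM at both stages, 8 were more than 2-fold higher in replicate 1 at both stages and 10 in replicate 2, while 12 differed in opposite directions. Libraries were prepared with either of 2 kits and sequenced on either of 2 instruments, which the sources used here do not assign to libraries, and their part in these differences was not tested.

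**Figure D5:**
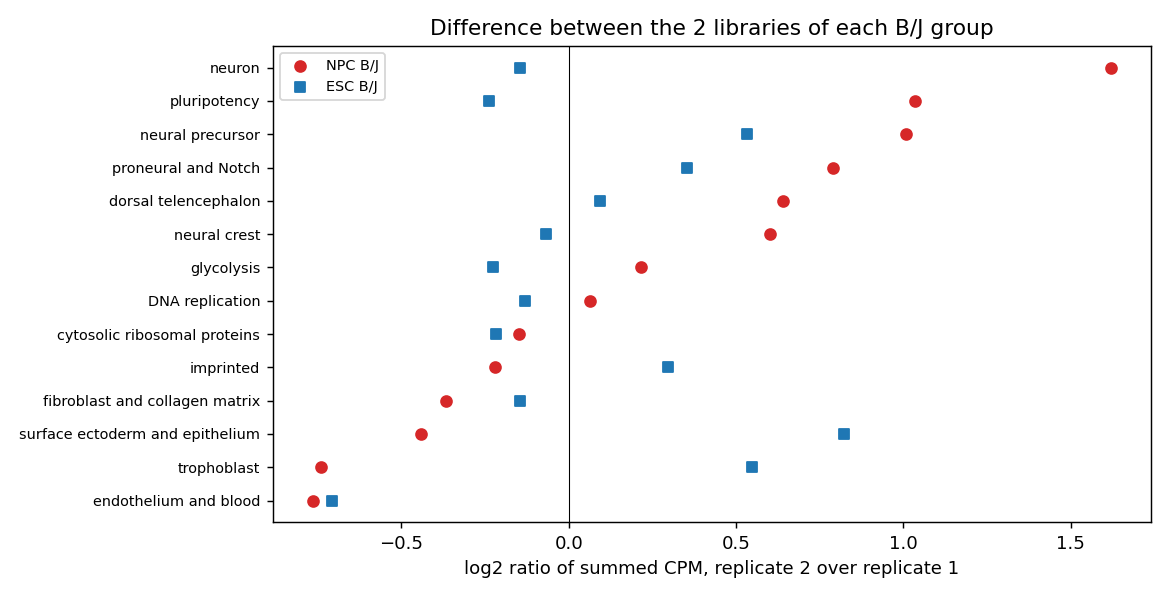
Log2 ratio of the summed CPM of 14 gene lists in replicate 2 over replicate 1, with red circles for NPCs and blue squares for ESCs. In NPCs the ratio was 3.07 for the neuron list and 0.599 for the trophoblast list before taking the log, whereas replication genes were at 1.05.

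Whether the stage change in B/J differed from that in J/B was tested as an interaction over all 8 libraries. edgeR's quasi-likelihood test, which took the libraries as independent, called no gene (0% of genes tested). Before adjustment 573 genes lay under 0.05, and after adjustment DESeq2 called 11 genes and limma-voom 0. Within a stage, however, libraries with the same number deviated together in both crosses. With the number taken as a block within each stage, an alternative chosen after seeing the data, edgeR again called 0 genes, with 1715 under 0.05 before adjustment and a lowest adjusted p of 0.236. The lowest unadjusted p-values with a larger value in B/J belonged to *Utf1*, an ESC chromatin gene with a change of -3.63 in B/J and -5.26 in J/B, the placental homeobox gene *Esx1* (3.87 and 0.85) and *Tanc2* (5.14 and 3.63). With a smaller value in B/J they belonged to *Tmsb4x* (1.44 and 3.16), the laminin gene *Lama1* (-0.30 and 1.67) and *Hsd17b10* (-0.79 and 0.62). Adjusted p was 1.0 for each. For *Nes* the changes were 1.35 and 2.83 and for *Pax6* 0.71 and 2.84 in B/J and J/B, and for *Peg13* they were 1.94 and 2.50. The differences between the crosses (B/J minus J/B) were -1.48 (SE 0.749), -2.14 (SE 1.44) and -0.55 (SE 0.769), and none of them passed the test. The medians of the trophoblast list were 6.17 in B/J and 5.02 in J/B, those of the neuron list 2.47 and 3.41 and those of the pluripotency list -4.40 and -6.17, values given side by side without a test.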

How the data were processed

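RNA-seq of polyadenylated RNA was analysed from 4 B/J libraries, with 4 J/B libraries in the same fit. The values are whole-number read counts per gene, which the authors deposited without normalization; the submitters' processing notes name TopHat2, HTSeq, DESeq2 and edgeR, with no versions, and no source states the strand setting of the counting. The last 5 rows of each table name no gene and were left out; reads without a feature were 5.756% to 9.047% and ambiguous reads at most 0.5363% in the B/J libraries. Counts were tested with edgeR 4.0.16 in R 4.3.3 (filterByExpr with a minimum count of 10, TMM factors, robust quasi-likelihood fit of 4 group means, Benjamini-Hochberg threshold 0.05), and the fit was tested on simulated data. Alternatives were other scalings, DESeq2 1.42.0, limma-voom (limma 3.58.1), other filters, a replicate block and leaving out each library; leaving out J/B libraries, and a block of replicate number within each stage for the interaction, were added after seeing the data. Tables were made with Python 3.11.15. Positions are from GENCODE vM39 on GRCm39, and promoter sequences from the RefSeq table of GRCm38.p6.

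The 33 gene lists and the members were chosen with earlier results of these data known. Genes were named by rule: the domain and reference genes, the 10 largest rises and 10 largest falls with at least 10 CPM in the higher stage and 3 counts in the lower, the 5 largest changes in CPM in each direction, 5 genes at 0 counts per stage, the 3 largest called rises and falls per list with members called against most of their list, the 5 highest and 5 lowest replicate ratios per stage among genes with a mean of at least 10 CPM in it, and the 3 lowest interaction p-values per direction. Other genes named were chosen after their values were seen. Lists are described by counts and medians, with no list test. Total counts limit the precision, and a count of 0 allows up to 3 counts. Some genes that the rule names are not reported here.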

Additional observations from a re-analysis of the deposited data

Results flagged for a closer look

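For *Lama1* and *Hsd17b10* both NPC libraries lay below both ESC libraries in B/J and above both in J/B. The change of *Lama1* in B/J did not pass the test (-0.30, adjusted p = 0.272), and it was 0.17 with library totals and 0.22 with housekeeping scaling, the direction of J/B. The difference between the crosses (B/J minus J/B) was -1.97 for *Lama1* and -1.41 for *Hsd17b10* on the log2 scale. edgeR's interaction test gave an adjusted p of 1.0 for both, so neither difference passed the correction, and both genes were picked for a low unadjusted p.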

How the results depend on the processing

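The total of 9143 calls stayed within 1.5 times under all 19 alternatives (6157 to 10100). Genes called higher numbered 3212 to 5212 with 1 library left out, lowest without ESC B/J replicate 1, and genes called lower numbered 2589 with library totals and 2326 with housekeeping scaling. The interaction, with 0 calls, had 11 with DESeq2 and 0 under each other alternative run. The *Peg13* change was 1.88 with limma-voom (adjusted p = 0.0579), and 1.30 to 2.40 with 1 library left out. Replicate numbers did not pair the samples across stages (r = 0.0606 between B/J ESC and NPC deviations), although deviations correlated between crosses within a stage (0.638 in ESCs, 0.48 in NPCs). With a replicate block 10100 genes were called, 5485 higher and 4615 lower, with *Nes* among the genes called. Of 202 named genes, 149 kept direction and call under every alternative run, and 42 lost the call under at least 1. By library, 24 calls were lost without ESC replicate 1, 29 without ESC replicate 2, 23 without NPC replicate 1 and 26 without NPC replicate 2, *Peg13* among those lost without either replicate 2. Changes that took the other sign were not called in either fit. With 1 library left out, *Pax6* ranged from -0.59 to 2.07, *Trappc9* from -0.251 to 0.0892, *Lars2* from -3.01 to 0.14, *T* from -2.86 to 0.81 and *Rpl31-ps12* from -3.32 to 1.94. With library totals and housekeeping scaling *Trappc9* was at 0.38 and 0.43 and *Lama1* at 0.17 and 0.22. The cause was not tested. Of 66 list counts, 29 stayed within 1.5 times under every alternative. Depth limits genes near 1 count, 0.0285 to 0.0434 CPM.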

Other observations

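Some genes of the interferon response, which cells switch on against viruses, had far higher levels in B/J NPCs than in ESCs. They were picked after their values were seen, so the levels are a description and no count of calls is given. *Isg15*, a ubiquitin-like modifier, was read at 0.0434 and 0.257 CPM in ESCs and at 80.1 and 26.4 CPM in NPCs. *Rsad2*, an antiviral enzyme, was read at 0.651 and 0.812 CPM and at 143 and 81.5 CPM. *B2m*, a subunit of MHC class I, was read at 4.21 and 6.28 CPM and at 171 and 111 CPM. *Ifitm1* was lower in NPCs, at 60.5 and 73.9 CPM in ESCs and 7.21 and 7.88 CPM in NPCs. The interferon genes *Ifnb1* and *Ifng* had 0 counts in all 4 B/J libraries. NPC replicate 1 was the higher NPC library for 32 of the 34 tested among 36 such genes. It was so for 20 of 24 trophoblast genes, 14 of 15 fibroblast and collagen genes, 17 of 20 ribosomal protein genes and all 18 respiratory chain genes. The share of all genes tested that were higher in either NPC library is not given. Such counts by replicate, here and above, are therefore a description only.

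*Lars2*, a mitochondrial leucyl-tRNA synthetase gene, was higher in the libraries numbered 1 than in those numbered 2 in all 4 groups of the series, with 947 and 135 CPM in B/J ESCs, 971 and 91.1 CPM in J/B ESCs, 231 and 67.3 CPM in B/J NPCs and 257 and 56.4 CPM in J/B NPCs.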
